A study of Mus musculus with 20 samples.

Results

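Neuro2A (N2A) cells, a mouse neuroblastoma line that keeps features of sympathetic neuron precursors, were scanned with a pulsed near-infrared laser at a single average intensity of 47.72 mW/µm2 and at 3 fluencies, and their polyadenylated RNA was sequenced in bulk 1 h later. Fluency is the energy delivered per area. It was set by the time that the beam dwelt on each pixel, which was 2 µs in group I0-E0 (9.54 J/cm2), 10 µs in I0-E2 (47.72 J/cm2) and 20 µs in I0-E4 (95.43 J/cm2). These groups were chosen by their titles and held 3 libraries each, so 9 of the 20 samples of the series form the fluency series, and all 9 belong to the first of its batches. The 3 unexposed libraries of that batch (NC) entered no main fit and are given as a level beside the exposed libraries. They entered only the alternative fit of all 15 libraries of the batch. All groups share the cell line, the medium and the handling, and exposure was applied to whole wells of multi-well plates.

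Fluency and dwelling time rise together in this design and cannot be told apart. The libraries of a group carry replicate numbers, and whether each came from its own culture is not given in the labels. The p-values therefore rest on the scatter among these libraries alone, which may be technical. In bulk RNA, a change in a few cells and a smaller change in all cells cannot be told apart.

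Absorbed near-infrared light can heat a cell and can form reactive oxygen species. Heat and misfolded proteins release the transcription factor HSF1, which binds heat shock elements and switches on chaperone genes such as Hspa1a, Hspa1b and Dnajb1. Oxidants act through NRF2 on Hmox1, Nqo1, Srxn1 and Txnrd1, DNA damage acts through p53 on Cdkn1a and Mdm2, and misfolded proteins in the endoplasmic reticulum raise Hspa5 and Ddit3. Growth factor and calcium signals act through the kinase ERK on immediate-early genes such as Fos and Egr1, and ERK also switches on its own inhibitors, the Dusp phosphatases and Sprouty proteins. Transcripts of immediate-early genes can change within an hour of a stimulus. The study states that expression might change at a longer time scale than its wait of 1 h, and such changes would not be seen here.

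The total estimated count of a library was 7606317 to 8059622 in I0-E0, 8016573 to 8636798 in I0-E2 and 5623685 to 8280080 in I0-E4, and 12044 genes passed the filter on low counts. Levels below are CPM, counts scaled to a common library total, which can be compared between libraries and not between genes, since they are not divided by transcript length. The summed level of 20 genes that mark N2A cells or sympathetic neurons was 4808 to 5473 CPM over the 9 libraries. The summed levels of the fibroblast, macrophage, epithelial, endothelial, glial and erythroid marker lists lay between 0.358 and 23.5 CPM in every library. Of their genes, Lyz2, Epcam, Krt18, Krt5, Cldn5, Olig2, Hba-a1 and Hbb-bt were at 0 reads in all 9, and the others had some reads. In the fibroblast, endothelial and glial lists, 2 genes each passed the filter on low counts. A pair of libraries stood apart. I0-E0 replicate 3 held reads of 20060 genes, against 16049 to 17026 in the other 8, and 1378 genes had reads there and in none of the other 14 libraries of the batch, mostly single reads that made up 0.0245% of its count. I0-E4 replicate 2 had the lowest total count and lay apart on the second dimension of a scaling of the 9 libraries. Each count of calls below was also made without these 2 libraries.

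No gene was called along the fluency series. The slope of each gene's counts on fluency was tested over all 9 libraries with edgeR's quasi-likelihood test at a false discovery rate of 0.05, and its size is given as the fitted log2 change between the lowest and the highest fluency. Of 12044 genes tested, 0 were called (0%) in this trend, and the smallest adjusted p was 0.675. The comparison of I0-E4 with I0-E0, a 10-fold difference in fluency, also called 0 genes (0%), with a smallest adjusted p of 0.954. At an unadjusted p under 0.05, 626 genes (5.2%) were found in the trend, 254 of them with a positive and 372 with a negative slope, and 543 genes (4.51%) were found in I0-E4 against I0-E0, 209 higher and 334 lower. With no change in any gene, 602 genes would be expected at that threshold. The 3 libraries of I0-E4 all lay above the 3 of I0-E0 for 422 genes (3.5%) and all below them for 594 genes (4.93%), so that the groups did not overlap for 8.44% of genes. Groups of 3 libraries can separate fully with no change in a gene, and the number expected without change was not computed. No response to fluency is therefore read from these counts. Without I0-E0 replicate 3 and I0-E4 replicate 2 together, 0 genes were called in the trend and 328 reached an unadjusted p under 0.05. That count was 1364 without I0-E4 replicate 3 and 1119 without I0-E0 replicate 1, and the second of these settings gave 1 call by edgeR, Gm20431. With genes of low counts kept in the fit, which then gave every gene the same prior spread (infinite prior degrees of freedom), edgeR called 118 genes in the trend and 99 in I0-E4 against I0-E0, of which 97 and 85 are among the 12044 genes above. DESeq2 called 1 gene in each of these comparisons, Enc1, and found 432 genes in the trend and 304 in I0-E4 against I0-E0 at an unadjusted p under 0.05. With limma-voom 0 were called, and 545 and 493 were found at that p.

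The depth of the data limits how large a missed difference could have been. For the 9085 genes with a mean of at least 10 CPM, the median standard error of the trend was 0.089 on the log2 scale, and the 95% confidence interval lay wholly within 0.6 of 0 for 97.2% of them. In data simulated from these 9 libraries, 150 genes in all were changed at each fold, pooled over repeated draws. The test of the trend called 22% of genes changed 1.25-fold, 67.3% at 1.5-fold, 78.7% at 2-fold and 97.3% at 4-fold. For I0-E4 against I0-E0 it called 19.3%, 65.3%, 79.3% and 97.3%. Changes of 1.25-fold were thus mostly missed at this depth and number of libraries. Each draw mixed small and large changes and drew genes independently of each other. The shares called may therefore be higher than in the real libraries.

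The gene with the smallest p in the trend was Enc1, which encodes an actin-binding protein of developing neurons (chromosome 13, 97241105 to 97253034, plus strand, GRCm38). Its level was 409.0, 411.0 and 396.5 CPM in the I0-E0 libraries, 358.3, 367.4 and 399.3 CPM in I0-E2 and 311.8, 327.8 and 336.8 CPM in I0-E4. The I0-E4 libraries lay below the other 6, while I0-E2 overlapped I0-E0. I2-E2, another exposed group of the batch, was scanned at a higher intensity, with 2 µs per pixel and 47.72 J/cm2. Its libraries were as low in Enc1, with 326.9, 301.9 and 330.7 CPM. The fitted change over the range was -0.32 ± 0.056 (log2, SE), and its adjusted p by edgeR was 0.675. Over the 19 alternatives run, its adjusted p in the trend lay between 0.000214, by DESeq2, and 1, and it passed only by DESeq2 and with low counts unfiltered. The fitted change lay between -0.34 and -0.29. The unexposed libraries held 451.9, 380.6 and 347.6 CPM of Enc1, a range that held all libraries of I0-E0 and I0-E2 and lay above those of I0-E4.

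Other genes with low p values and lower levels at the highest fluency included signalling, ubiquitin and transcription proteins. None passed with low counts filtered, and without that filter Zfp462 and Foxn3 did, with adjusted p of 0.00341 and 0.0143 in the trend by edgeR. The genes named here, Enc1, Dusp6, Dnajb4 and the higher genes below were drawn from genes whose I0-E4 and I0-E0 libraries did not overlap. Those chosen by the trend also had group means in the order of fluency. This separation and order were thus conditions of the choice and are not results about these genes. Usp25, a deubiquitinating enzyme (chromosome 16, 77013706 to 77116780), had 22.2, 22.8 and 21.4 CPM in I0-E0, 18.4, 20.6 and 18.1 CPM in I0-E2 and 15.8, 16.6 and 14.9 CPM in I0-E4. Its 3 groups did not overlap, and the fitted change was -0.49 ± 0.098 (log2, SE), with an adjusted p of 0.897 by edgeR. The unexposed libraries lay at 20.7 to 21.9 CPM, within or just below the I0-E0 range. Zfp462, a zinc finger protein of the nucleus, averaged 55.2 ± 1.58 CPM in I0-E0, 47.5 ± 1.22 CPM in I0-E2 and 41.2 ± 5.35 CPM in I0-E4 (SD, n = 3 each). Foxn3, a forkhead repressor, averaged 65.2 ± 5.42, 60.0 ± 4.06 and 50.8 ± 4.27 CPM in the same order of fluency. Lats1, a kinase of the Hippo pathway, averaged 115.2 ± 2.00, 105.0 ± 7.86 and 95.4 ± 7.10 CPM, and Atmin, a partner of the DNA damage kinase ATM, averaged 77.4 ± 3.21, 68.1 ± 0.863 and 64.1 ± 4.34 CPM. The fitted changes of these 4 genes lay between -0.41 and -0.27 on the log2 scale, each with an adjusted p of 0.897 by edgeR. AC149090.1, a gene on an unplaced scaffold with no role given in the annotation, had a fitted change of -0.25 ± 0.054 (log2, SE). Ttbk1, a kinase of the tau protein, was chosen by the comparison of the ends of the series, with 38.5, 31.2 and 38.5 CPM in I0-E4 against 48.7, 45.7 and 44.2 CPM in I0-E0. The NC libraries lay above those of I0-E4 for Zfp462, Lats1, Atmin and AC149090.1. They overlapped those of I0-E4 for Foxn3, at 52.9 to 59.2 CPM, and for Ttbk1, at 36.8 to 45.7 CPM.

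**Figure D1:**
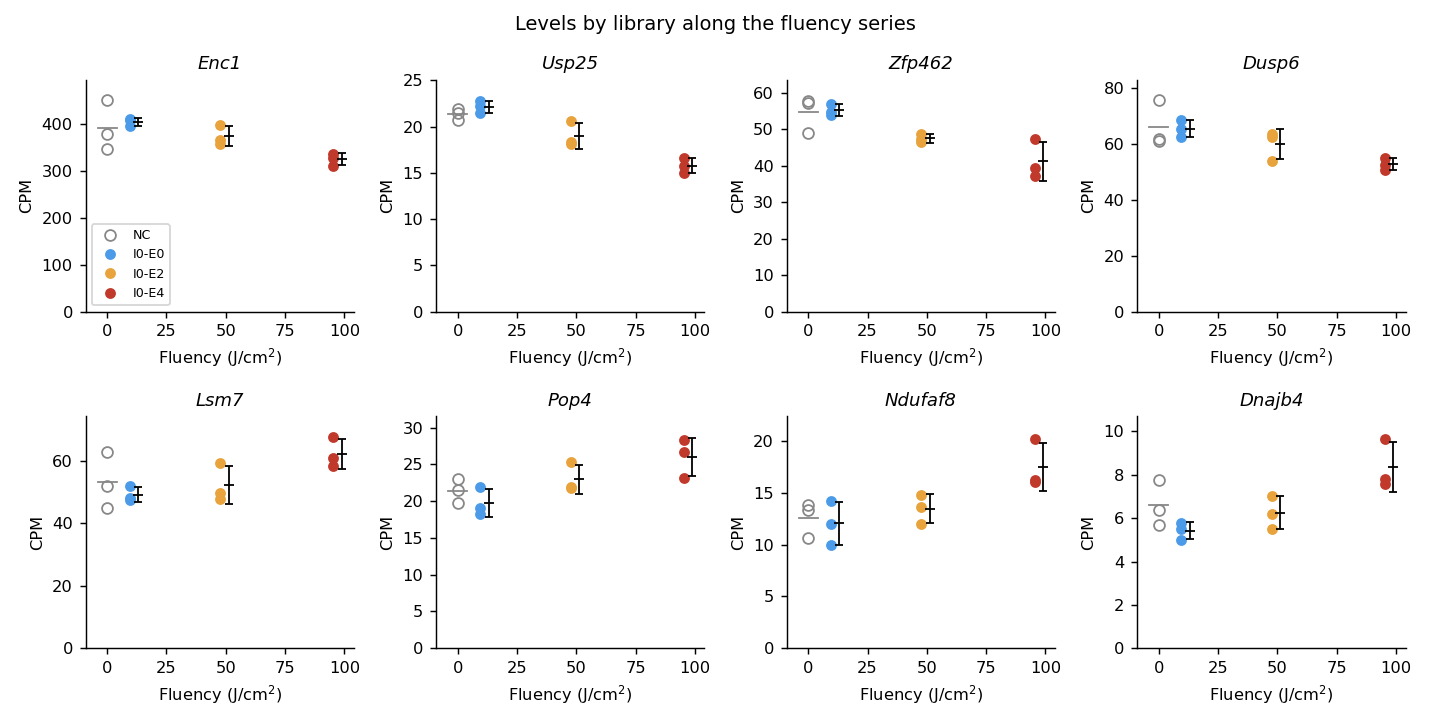
Levels in CPM (y axes, linear, from 0) of 8 genes by fluency in J/cm2 (x axes). Each filled point is 1 library of I0-E0, I0-E2 or I0-E4, black bars give the mean and SD of 3 libraries, and open grey points with a grey line give the unexposed NC libraries and their mean at 0 J/cm2. The I0-E4 points of Enc1 lie at 311.8 to 336.8 CPM and those of I0-E0 at 396.5 to 411.0 CPM. The 8 genes were drawn from those whose I0-E4 and I0-E0 libraries did not overlap. No gene shown passed the false discovery rate of 0.05 by edgeR with low counts filtered.

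Genes with low p values and higher levels at the highest fluency included genes of RNA processing, the ribosome and the mitochondrion. The higher genes named here had shorter transcripts than the lower genes named above, with lengths given below. None passed with low counts filtered, and without that filter Rps18 and Lsm7 did, with adjusted p of 0.00289 and 0.0248 in the trend by edgeR. Pop4, a protein of RNase P, which trims tRNA precursors (chromosome 7, 38261996 to 38271423), had 19.1, 18.3 and 21.9 CPM in I0-E0, 21.7, 25.3 and 21.9 CPM in I0-E2 and 26.7, 23.2 and 28.3 CPM in I0-E4. The I0-E4 libraries lay above those of I0-E0 and overlapped those of I0-E2, and the fitted change was 0.40 ± 0.109 (log2, SE; adjusted p = 0.897 by edgeR). Lsm7, a subunit of the ring that binds U6 RNA and decaying mRNA, averaged 49.0 ± 2.36, 52.2 ± 6.08 and 62.2 ± 4.74 CPM from the lowest to the highest fluency. Ndufaf8, an assembly factor of respiratory complex I, averaged 12.1 ± 2.10, 13.5 ± 1.39 and 17.5 ± 2.35 CPM, and Ccnl1, a cyclin that acts in splicing, averaged 53.2 ± 2.22, 58.0 ± 1.76 and 63.0 ± 5.06 CPM. The NC libraries lay below those of I0-E4 for Pop4, Ndufaf8 and Rps18. They overlapped those of both I0-E0 and I0-E4 for Lsm7, at 44.9 to 62.7 CPM, and for Ccnl1, at 49.4 to 64.8 CPM. Rps18, of the small ribosomal subunit, had a fitted change of 0.32 ± 0.089 (log2, SE). Its reads may be shared with copies elsewhere in the genome, as may those of Lsm7. Of the short sequence words in the transcripts of each, 77.6% for Rps18 and 83.7% for Lsm7 were found in that gene alone.

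The named genes with the largest fitted changes were Tmem230 and Pagr1a, which also passed only without the filter on low counts, with adjusted p of 0.0428 and 1.36e-13 in the trend by edgeR. Tmem230, a protein of vesicle traffic, had 1.38, 2.37 and 1.99 CPM in I0-E0, 3.10, 2.75 and 2.23 CPM in I0-E2 and 3.68, 4.56 and 5.42 CPM in I0-E4, with a fitted change of 1.26 ± 0.282 (log2, SE; adjusted p = 0.897 by edgeR). The unexposed libraries lay at 3.03 to 3.71 CPM, above all I0-E0 libraries, and 1 of them overlapped the I0-E4 libraries. Pagr1a, a subunit of histone methyltransferase complexes, ranged from 2.37 to 14.4 CPM within I0-E4, against 0 to 0.879 CPM in I0-E0, and from 2.54 to 19.1 CPM within NC. Only 6.81% of its short words are its own, so its value is uncertain. Nnat, which encodes neuronatin of neural cells, had 9.19, 11.7 and 9.75 CPM in I0-E4 against 6.78, 7.37 and 6.35 CPM in I0-E0, and 9.44 to 12.2 CPM in I0-E2, so that its level at the middle fluency was no lower than at the highest.

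A set of 26 stress and cell cycle markers was followed as a panel, and none of its genes was called. Hspa1a, the most heat-inducible member of the Hsp70 family in mouse together with Hspa1b, was at 0 reads in all 9 libraries, which allows a level of up to 0.533 CPM in the shallowest library by counting error alone. Hspa1b had 0 to 5 reads and Hspb1 0 to 3 reads in a library, too few for the test. The other 23 were tested, 12 with a fitted trend above 0 and 11 below it, with a median of 0.015 against 0.0015 over all genes tested. The fitted changes ran from -0.28 for Egr1 to 0.16 for Txnip, and Hspa5 alone reached an unadjusted p under 0.05, where 5.2% of all genes did.

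For the cytosolic chaperones of the panel that were tested, the confidence interval of the trend took in 0. Hsph1, a large cytosolic chaperone that works with Hsp70, had 499.3, 489.5 and 468.6 CPM in I0-E0, 484.9, 500.9 and 489.3 CPM in I0-E2 and 491.7, 463.7 and 484.0 CPM in I0-E4. These libraries overlapped fully, and the fitted change was -0.019 with a 95% confidence interval of -0.13 to 0.086 (log2). Dnajb1, a heat-inducible partner of Hsp70, averaged 69.3 ± 6.49, 68.4 ± 7.83 and 68.9 ± 4.67 CPM (SD, n = 3 each), with an interval of -0.20 to 0.18. Hspa8, the constitutive Hsp70 of the cytosol, averaged 1705 ± 104, 1770 ± 46.9 and 1814 ± 35.4 CPM, with an interval of -0.017 to 0.19. Of 34 heat shock genes listed, 29 were tested, 17 of them with a trend above 0, and the median was 0.026. Only Dnajb4 reached an unadjusted p under 0.05, where 5.2% of all genes did. Dnajb4, another Hsp40 partner of Hsp70, had 5.78, 5.00 and 5.48 CPM in I0-E0, 6.21, 5.51 and 7.04 CPM in I0-E2 and 7.81, 9.67 and 7.58 CPM in I0-E4. Its I0-E4 libraries lay above those of I0-E0, and those of NC, at 5.69 to 7.74 CPM, overlapped the libraries of I0-E0 and of I0-E4. The fitted change was 0.62 ± 0.175 (log2, SE; adjusted p = 0.897 by edgeR).

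**Figure D2:**
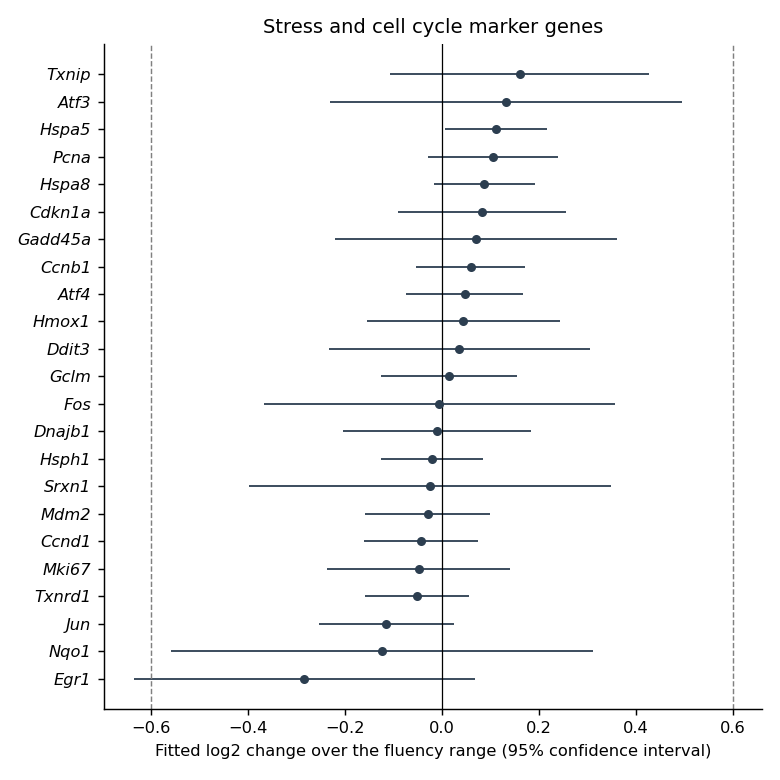
Fitted log2 change over the fluency range (x axis) for the 23 tested stress and cell cycle markers (y axis, in order of the change), as points with 95% confidence intervals over 9 libraries. Dashed lines stand at 0.6 on both sides of 0. The points run from -0.28 for Egr1 to 0.16 for Txnip, and the interval of Egr1 alone passes a dashed line.

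None of the 12044 genes tested was called, and so no heat shock gene with the binding sequence of HSF1 near its start. RefSeq promoters of 250 bases before to 50 bases after a start were searched on both strands for the heat shock element GAANNTTCNNGAA, which reads TTCNNGAANNTTC on the other strand. It was found in 198 of 32851 promoters (0.603%), and in those of 5 of the 28 listed heat shock genes with a promoter in RefSeq, namely Chordc1, Dnajb6, Hspd1, Hspe1 and Hsph1. Only exact matches within this window were counted, and Hspa1a, Hspa1b and Dnajb1, named above as HSF1 targets, are not among these 5. The fitted trends of these 5 lay between -0.029 and 0.17 on the log2 scale. The promoters of Hspe1 (chr1:55087898-55088197, plus strand) and Hsph1 (chr5:149636266-149636565, minus strand) are shown, as examples of heat-responsive promoters with differently placed elements, from build GRCm38.p6 with the matches in capitals. A match describes the letters only.
Hspe1: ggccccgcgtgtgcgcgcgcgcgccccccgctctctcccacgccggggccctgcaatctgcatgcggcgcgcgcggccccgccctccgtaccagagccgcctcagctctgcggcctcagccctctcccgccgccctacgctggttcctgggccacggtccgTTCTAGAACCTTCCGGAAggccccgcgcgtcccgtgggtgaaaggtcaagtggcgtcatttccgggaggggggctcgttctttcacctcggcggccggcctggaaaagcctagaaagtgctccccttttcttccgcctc
Hsph1: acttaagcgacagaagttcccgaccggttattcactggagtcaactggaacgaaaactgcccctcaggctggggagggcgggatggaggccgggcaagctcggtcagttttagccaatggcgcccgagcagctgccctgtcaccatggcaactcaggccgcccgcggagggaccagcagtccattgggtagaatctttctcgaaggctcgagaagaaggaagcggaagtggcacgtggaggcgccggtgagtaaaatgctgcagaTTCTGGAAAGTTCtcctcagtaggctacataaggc
Hspe1, the mitochondrial co-chaperonin, carries 2 overlapping matches, the first of which begins 89 bases before its start, and it shares this stretch with Hspd1, which is read in the other direction. Hspe1 had 289.9, 232.7 and 233.5 CPM in I0-E0, 258.0, 275.1 and 281.0 CPM in I0-E2 and 306.1, 310.6 and 239.2 CPM in I0-E4. The highest 2 libraries belonged to I0-E4 and the third I0-E4 library lay among those of I0-E0, and the fitted change was 0.17 with an interval of -0.040 to 0.39. Hsph1, whose single match begins 15 bases after its start, is described above.

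Genes of the oxidative stress response and of the endoplasmic reticulum showed small differences. Of 40 tested genes of the oxidative stress list, 29 had a trend above 0, with a median of 0.042. At an unadjusted p under 0.05, where 5.2% of all genes stood, 1 of them was found. This was Gpx4, which reduces lipid peroxides, with 156.0, 142.9 and 132.2 CPM in I0-E0, 138.2, 163.1 and 172.8 CPM in I0-E2 and 168.4, 178.2 and 154.4 CPM in I0-E4. The groups overlapped and the fitted change was 0.21 ± 0.087 (log2, SE). Hmox1, which degrades heme and is strongly induced by oxidants, averaged 46.9 ± 4.54, 50.7 ± 4.82 and 48.5 ± 1.11 CPM, with an interval of -0.15 to 0.24. Txnrd1, which reduces thioredoxin, averaged 422.9 ± 11.9, 422.7 ± 12.2 and 408.4 ± 11.6 CPM, and Srxn1 and Nqo1, with levels of 5.29 to 11.5 CPM, had fitted changes of -0.023 and -0.12. Of 38 tested genes of the unfolded protein and integrated stress responses, 23 had a trend above 0, with a median of 0.027. Hspa5, the Hsp70 of the endoplasmic reticulum, had 862.4, 814.3 and 825.2 CPM in I0-E0, 833.0, 875.5 and 864.7 CPM in I0-E2 and 941.4, 899.6 and 862.5 CPM in I0-E4. The I0-E4 libraries all lay above those of I0-E0, at 862.5 against 862.4 CPM in the closest pair, and the fitted change was 0.11 ± 0.049 (log2, SE; adjusted p = 0.897 by edgeR). Ppp1r15b, which guides a phosphatase to the translation factor eIF2 alpha, had the opposite order, with 127.6, 120.7 and 115.8 CPM in I0-E0, 115.6, 112.8 and 113.1 CPM in I0-E2 and 112.2, 99.96 and 111.2 CPM in I0-E4, and its 3 groups did not overlap. Its fitted change was -0.17 ± 0.059 (log2, SE). Atf4 and Ddit3, transcription factors of the integrated stress response, had fitted changes of 0.047 and 0.037, both with groups that overlapped.

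Targets of p53 moved in no shared direction. Of 29 tested, 14 had a trend above 0 and the median was -0.0059. Cdkn1a, which halts the cell cycle, had 40.8, 41.1 and 39.0 CPM in I0-E0, 43.0, 45.5 and 46.3 CPM in I0-E2 and 44.9, 42.7 and 41.3 CPM in I0-E4, all above I0-E0 and highest at the middle fluency. The NC libraries of Cdkn1a, at 42.5 to 44.4 CPM, also lay above those of I0-E0 and overlapped those of I0-E2 and I0-E4. Mdm2, which degrades p53, averaged 147.6 ± 5.44, 141.5 ± 4.43 and 144.1 ± 8.86 CPM. In the trend, 5.2% of all genes tested had an unadjusted p under 0.05, and of this list Gadd45g, Zmat3 and Btg2 did. The fitted change was 0.37 ± 0.14 for Gadd45g, a growth arrest gene. It was -0.20 ± 0.075 for Zmat3 and -0.56 ± 0.23 for Btg2 (log2, SE), both p53 targets that restrain growth. Each had an adjusted p of 0.897 by edgeR. Gadd45g held 39.1, 33.8 and 30.2 CPM in I0-E4 against 33.8, 23.4 and 22.1 CPM in I0-E0, so that its groups overlapped, whereas the I0-E4 libraries of Zmat3, at 55.6 to 59.5 CPM, all lay below those of I0-E0, at 60.9 to 71.5 CPM.

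No immediate-early gene or feedback inhibitor of ERK was called, and members with low p values lay on both sides of 0. Of 34 tested genes of this list, 8 had an unadjusted p under 0.05 in the trend, where 5.2% of all genes did. Nr4a2 and Dusp1 had positive slopes, and Dusp6, Arc, Spry4, Dusp4, Fosl2 and Btg2 had negative slopes. The I0-E4 libraries all lay below those of I0-E0 for 9 of the 34, against 4.93% of all genes, and all above them for 4, against 3.5%. The list as a whole was centred near 0, with a median of -0.036 and 15 of 34 genes above 0, and without the 2 libraries that stood apart the median was -0.10. Dusp6, the phosphatase that removes phosphate from ERK in the cytosol, had 68.3, 62.4 and 65.3 CPM in I0-E0, 62.3, 53.8 and 63.4 CPM in I0-E2 and 55.0, 50.7 and 52.4 CPM in I0-E4. Its I0-E4 libraries lay below all I0-E0 libraries and below those of NC, which held 60.8 to 75.4 CPM, and the fitted change was -0.31 ± 0.0745 (log2, SE; adjusted p = 0.897 by edgeR). Dusp4, a nuclear phosphatase of ERK, had 234.5, 228.2 and 215.1 CPM in I0-E0, 212.9, 206.2 and 230.0 CPM in I0-E2 and 194.6, 203.2 and 203.7 CPM in I0-E4. The I0-E4 libraries of Dusp4 overlapped those of NC, which held 193.3 to 224.3 CPM. Spry4, an inhibitor of receptor tyrosine kinase signalling, had 12.4, 10.7 and 12.2 CPM in I0-E0, 9.44, 10.9 and 11.4 CPM in I0-E2 and 7.66, 9.12 and 9.51 CPM in I0-E4, and its relative Spry2 had a fitted change of -0.18 ± 0.086 (log2, SE).

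Arc, an immediate-early gene of synapses, had 9.55, 10.8 and 13.7 CPM in I0-E0, 11.7, 10.8 and 9.97 CPM in I0-E2 and 8.58, 7.11 and 7.22 CPM in I0-E4. Its fitted change was -0.57 ± 0.17 (log2, SE; adjusted p = 0.897 by edgeR), and the NC libraries, at 8.05 to 11.8 CPM, overlapped those of I0-E4. Fosl2, a partner of Jun in the AP-1 factor, averaged 40.5 ± 3.20, 37.1 ± 0.821 and 33.8 ± 3.27 CPM from the lowest to the highest fluency. Fos itself did not share this order, with 6.48 ± 0.274, 6.92 ± 0.862 and 6.47 ± 0.438 CPM (SD, n = 3 each), and Egr1, a zinc finger factor downstream of ERK, had 15.7, 17.0 and 15.8 CPM in I0-E0, 17.9, 18.5 and 15.8 CPM in I0-E2 and 10.9, 17.2 and 12.4 CPM in I0-E4. The second I0-E4 library of Egr1 lay above all of I0-E0 and the other 2 lay below. Without I0-E4 replicate 2 and I0-E0 replicate 3, the log2 difference of Egr1 between I0-E4 and I0-E0 was -0.48, with an adjusted p of 0.999 by edgeR. Dusp1, a phosphatase of stress kinases that is itself induced by stress, had the opposite order, with 24.2, 22.4 and 22.9 CPM in I0-E0, 23.1, 24.8 and 27.0 CPM in I0-E2 and 30.0, 29.4 and 24.4 CPM in I0-E4. Its fitted change was 0.26 ± 0.10 (log2, SE), and that of Nr4a2, a nuclear receptor of the same early class, was 0.36 ± 0.15.

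**Figure D3:**
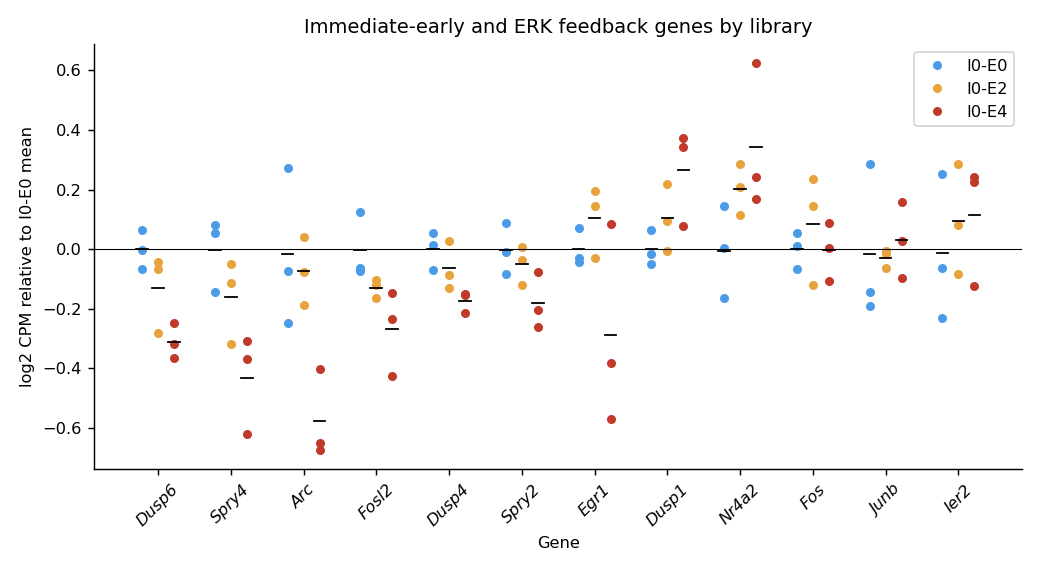
Level of 12 immediate-early and ERK feedback genes in each library (y axis, log2 CPM relative to the mean of the 3 I0-E0 libraries), with I0-E0, I0-E2 and I0-E4 from left to right within each gene (x axis) and a black line at the mean of 3 libraries. The I0-E4 points of Dusp6 lie at 50.7 to 55.0 CPM, below the I0-E0 points at 62.4 to 68.3 CPM, and those of Dusp1 lie above. None of these genes was called by edgeR.

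No cell cycle gene was called, and the medians of both cell cycle lists were small and depended on single libraries. Of 50 S phase genes, all tested, 36 had a trend above 0, with a median of 0.042, and 3 reached an unadjusted p under 0.05, namely Slbp, which binds histone mRNA, Rfc2, a loader of the replication clamp, and Gins4, of the replicative helicase. That share is close to the 5.2% over all genes. Slbp had 100.5, 99.6 and 102.5 CPM in I0-E0, 109.3, 107.6 and 104.0 CPM in I0-E2 and 118.1, 113.1 and 104.2 CPM in I0-E4. Every I0-E2 and I0-E4 library of Slbp lay above those of I0-E0, and the fitted change was 0.15 ± 0.057 (log2, SE; adjusted p = 0.897 by edgeR). Of 48 genes of G2 and mitosis, 37 had a trend above 0, with a median of 0.022. Cdca8 and Birc5, both of the chromosomal passenger complex, reached an unadjusted p under 0.05, where 5.2% of all genes did. Without I0-E4 replicate 1 the median was 0.018 for S phase and 0.056 for G2 and mitosis. Mki67, a marker of dividing cells, averaged 665.9 ± 62.8, 676.4 ± 63.2 and 645.4 ± 69.4 CPM, Pcna, the replication clamp, 341.5 ± 4.47, 350.9 ± 10.8 and 367.8 ± 33.5 CPM, and Ccnb1, the mitotic cyclin, 509.8 ± 20.2, 519.7 ± 16.8 and 531.3 ± 23.3 CPM, all with groups that overlapped.

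A small shift shared by most members was seen for ribosomal proteins and for nuclear subunits of the respiratory chain. Of 77 ribosomal protein genes, 76 had a trend above 0, with a median of 0.14 against 0.0015 over all genes tested, and 12 reached an unadjusted p under 0.05, all with a positive slope, where 5.2% of all genes did in either direction, but 0 were called. Rpl35a had 176.6, 168.1 and 171.8 CPM in I0-E0, 171.8, 171.3 and 214.2 CPM in I0-E2 and 196.4, 219.3 and 191.6 CPM in I0-E4, and its fitted change was 0.23 ± 0.082 (log2, SE). Of 63 nuclear subunits of oxidative phosphorylation, 60 had a trend above 0, with a median of 0.11, and 3 reached an unadjusted p under 0.05, namely Ndufv2 and Ndufs6 of complex I and Uqcrq of complex III, which is no larger a share than the 5.2% over all genes. Of 34 proteasome subunits, 30 had a trend above 0, with a median of 0.080. The 13 mRNAs encoded in the mitochondrion did not share this order, with 5 above 0 and a median of -0.047.

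In these lists the groups overlapped. The median ribosomal protein gene lay 0.10, -0.088 and -0.0060 from the I0-E0 mean on the log2 scale in the 3 I0-E0 libraries, -0.034, 0.045 and 0.15 in I0-E2 and 0.19, 0.28 and -0.037 in I0-E4. I0-E4 replicate 3 lay below 2 of the 3 I0-E0 libraries for proteasome subunits, for nuclear respiratory subunits and for ribosomal proteins. Transcript length moved with the same libraries. For the 469 genes with an effective length under 500 bases, the median difference was 0.085, -0.11 and 0.015 in I0-E0, -0.033, 0.043 and 0.088 in I0-E2 and 0.18, 0.23 and -0.082 in I0-E4, and for the 2145 genes with the longest transcripts it had the opposite sign in 8 of these 9 libraries. The median effective length was 482 bases for ribosomal protein genes, 521 bases for nuclear respiratory subunits and 2251 bases for all genes tested. When each library's trend on length was removed from log2 CPM, an alternative added after seeing the data, the median trend of ribosomal protein genes was 0.035 in place of 0.13, with 61 of 77 above 0. That of nuclear respiratory subunits was 0.033 in place of 0.11, with 43 of 63 above 0, and that of proteasome subunits was 0.042 in place of 0.080. The median trend was 0.0924 for the 469 genes under 500 bases and -0.0545 for the 2145 with the longest transcripts. Genes named by the smallest p of the trend or of I0-E4 against I0-E0 differed in length by direction. Effective lengths of the higher ones ran from 277 bases for Lsm7 to 2191 bases for Dnajb4. Those of the lower ones ran from 2485 bases for Dusp6 to 6755 bases for Ttbk1. The part of transcript length in these and the other genes named above was not tested.

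**Figure D4:**
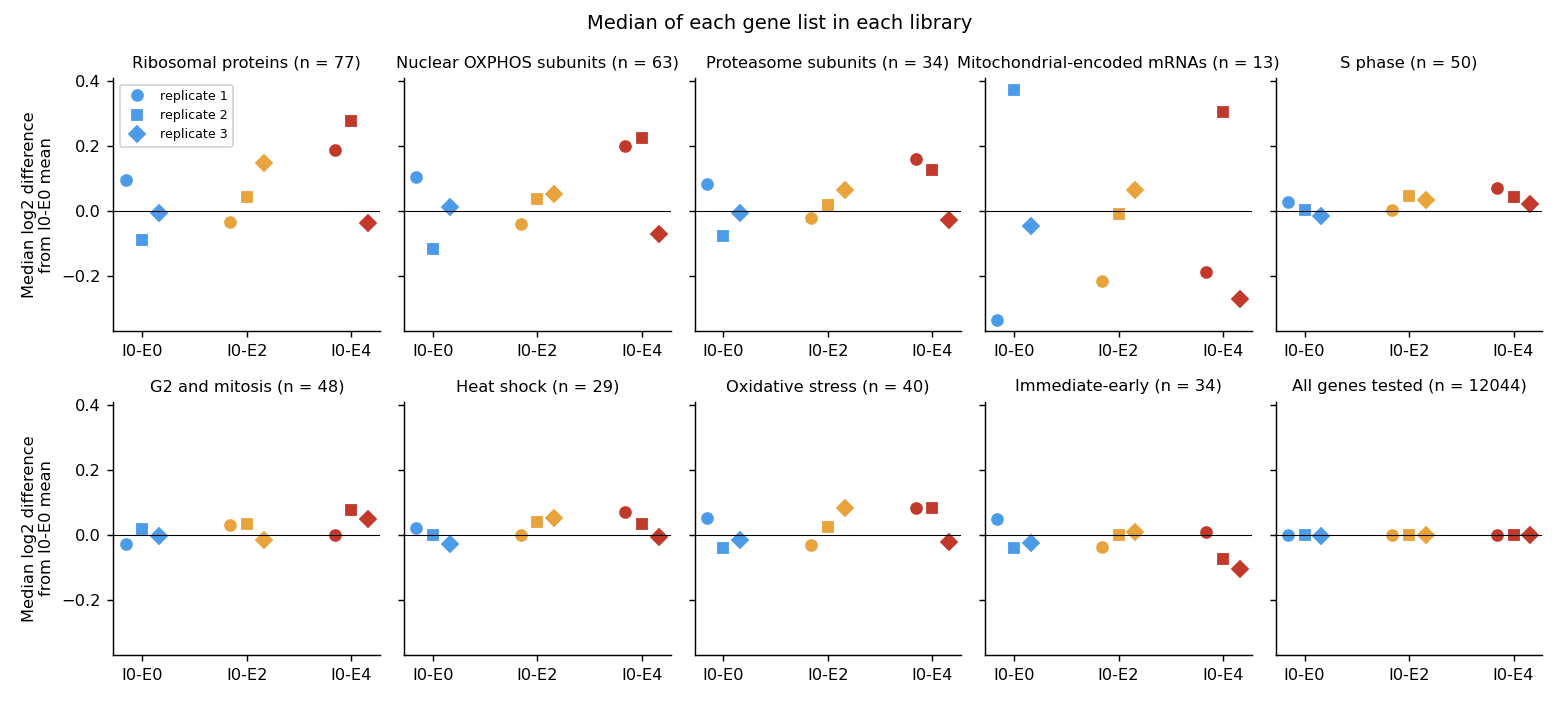
Median difference from the mean of the I0-E0 libraries (y axis, log2 CPM) of 9 gene lists and of all genes tested, in each library of I0-E0, I0-E2 and I0-E4 (x axis), with the number of genes in each panel title and the replicate number given by the shape. In the panels of ribosomal proteins and of nuclear OXPHOS (oxidative phosphorylation) subunits, I0-E4 replicates 1 and 2 lie highest and replicate 3 lies among the I0-E0 libraries.

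**Figure D5:**
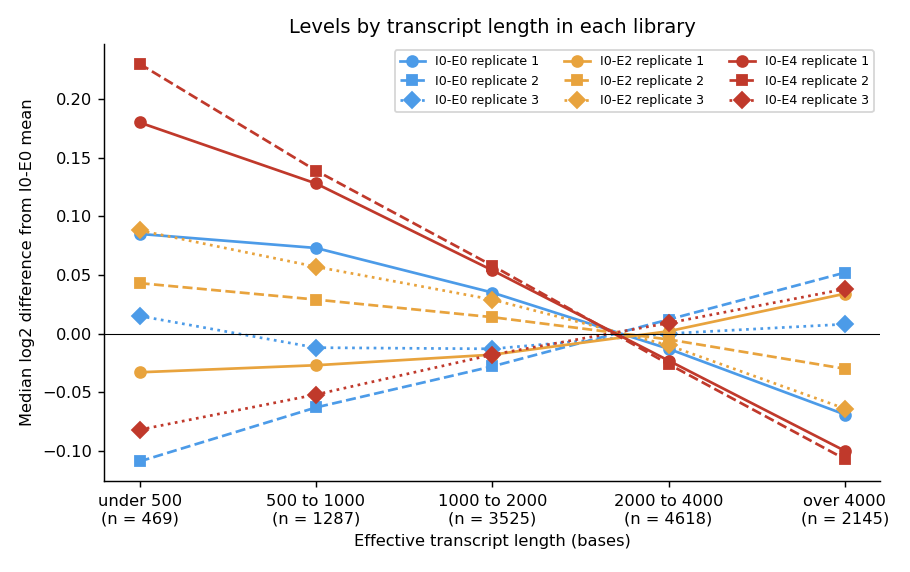
Median difference from the mean of the I0-E0 libraries (y axis, log2 CPM) for genes in 5 classes of effective transcript length (x axis, bases, with the number of genes), with a line for each of the 9 libraries. I0-E4 replicates 1 and 2 lie at 0.18 and 0.23 for transcripts under 500 bases, while I0-E4 replicate 3 lies at -0.082.

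The steps between neighbouring fluencies were tested in the same fit and also called 0 genes (0% each). In I0-E2 against I0-E0, 324 genes (2.69%) had an unadjusted p under 0.05, in I0-E4 against I0-E2 400 genes (3.32%) and in the test of departure from a straight line 286 genes (2.37%). Without I0-E4 replicate 3 the count for I0-E4 against I0-E2 was 1177 and that for departure from a line 450, and for I0-E2 against I0-E0 it was 546 without I0-E0 replicate 1 and 206 without I0-E0 replicate 3. The test of departure from a line asks whether the level at 47.72 J/cm2 leaves the line between the ends of the series. Hist1h2ap, a histone H2A gene whose reads are shared with its near copies, had the smallest p there, with 137.9, 125.4 and 85.6 CPM in I0-E0, 223.9, 294.8 and 205.2 CPM in I0-E2 and 144.0, 147.8 and 65.1 CPM in I0-E4, and the NC libraries ranged from 94.9 to 199.6 CPM. Its I0-E2 libraries lay above those of I0-E0 and I0-E4, and 6.64% of its short words are its own. Safb2, a nuclear matrix protein, had its lowest levels at the middle fluency, with 55.3, 54.2 and 47.5 CPM in I0-E0, 47.9, 46.8 and 44.9 CPM in I0-E2 and 63.1, 55.8 and 58.5 CPM in I0-E4. Doc2a, a calcium sensor of secretory vesicles, had 2.61, 2.55 and 2.89 CPM in I0-E4 against 6.21, 5.88 and 5.05 CPM in I0-E2, the smallest p of that step, and Adap1, which acts on Arf proteins, had 15.5, 12.04 and 12.8 CPM in I0-E4 against 9.31, 8.88 and 6.92 CPM in I0-E2. Dock9, an activator of the GTPase Cdc42, averaged 9.95 ± 1.47 CPM in I0-E0, 15.7 ± 2.95 CPM in I0-E2 and 10.7 ± 0.557 CPM in I0-E4, with NC at 13.8 to 19.3 CPM. Each of these genes had an adjusted p of at least 0.9988 by edgeR in both steps and in the test of departure from a line. DESeq2 called 2 genes in I0-E2 against I0-E0, 1 in I0-E4 against I0-E2 and 1 for departure from a line, and limma-voom called 0 in each.

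In 14 of the 12044 genes (0.116%) the 9 libraries fell into 3 groups that did not overlap and stood in the order of fluency, 4 with higher (0.0332%) and 10 with lower (0.083%) levels at higher fluency. This count was not set against the number that no change in any gene would give, so no response to fluency is read from it. Those named here were chosen after their values were seen. Vegfd, a growth factor of lymphatic vessels, Fggy, a sugar kinase, Wdr45b, of autophagy, and Xlr3b, of the X chromosome, stood higher. Among those that stood lower were Usp25, AC149090.1, Ppp1r15b, Rapgef2, Prkcb, Icam5, Jph4, Susd6 and Fam84b. Rapgef2, an activator of the GTPase Rap, had 79.9, 92.1 and 85.2 CPM in I0-E0, 76.9, 77.8 and 74.9 CPM in I0-E2 and 73.1, 74.4 and 73.6 CPM in I0-E4. Jph4, which joins the plasma membrane to the endoplasmic reticulum in neurons, had 78.9, 79.5 and 78.1 CPM in I0-E0, 72.0, 72.2 and 76.9 CPM in I0-E2 and 70.9, 68.0 and 67.8 CPM in I0-E4. The fitted changes of the 14 ran from -0.92 for Prkcb, a protein kinase C present at 0.843 to 2.01 CPM, to 0.67 for Vegfd, at 1.12 to 2.55 CPM, and none was called.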

How the data were processed

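Bulk RNA of N2A cells was sequenced 1 h after exposure (polyadenylated RNA, NEBNext Ultra II libraries). The authors quantified transcripts with Salmon (version, transcript release and build not given in the sources used here), and the deposited files give estimated counts and TPM per transcript. TPM, normalized to transcript length and depth by the authors, gave only average levels. Estimated counts were summed per gene through GENCODE vM21 (GRCm38), which matched 98.7% of transcripts, and rounded. The unmatched share was 0.639% to 0.683% of counts. Genes were kept by filterByExpr with a minimum count of 10, scaled by TMM, and tested with edgeR 4.0.16 (R 4.3.3; quasi-likelihood, Benjamini-Hochberg over 12044 genes), two-sided, without a replicate block. DESeq2 1.42.0 and limma 3.58.1 were alternatives. The test was checked on simulated counts. Standard errors were derived from the fitted log2 change and the statistic of its test, and so are approximate. The confidence intervals built on them include the spread between libraries, while floors of 3 counts cover counting error only. Named genes were up to 8 per direction with the smallest p of the trend or of I0-E4 against I0-E0, and up to 3 per direction for the steps and the bend, besides the marker set and, as examples, list members with the smallest p in the trend. The first were protein-coding, did not overlap between the ends of the series and, for the trend, had an I0-E2 mean between the others. Members and lists were chosen with earlier results of these data known. Dwelling times and fluencies came from the study's methods. Some items are not reported here.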

Additional observations from a re-analysis of the deposited data

How the results depend on the processing

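Every setting with the filter on low counts gave 0 calls by edgeR, except that leaving out single libraries gave 0 to 1 in the trend. The 1 call, Gm20431, came without I0-E0 replicate 1. Without a low-count filter 118 genes were called in the trend by edgeR, 99 in I0-E4 against I0-E0, 113 in I0-E2 against I0-E0, 60 in I0-E4 against I0-E2 and 87 for departure from a line; the cause was not tested. In that order, DESeq2 called 1, 1, 2, 1 and 1 genes. Settings with 0 calls were DESeq2's size factors, library totals, at least 50 counts in 3 libraries, limma-voom, all 15 libraries of the batch, log2 of fluency and both libraries that stood apart left out. Replicate numbers were not used to pair libraries in the main fits. Correlations of deviations ran from -0.29 to 0.29 for same-numbered libraries and from -0.35 to 0.36 for differently numbered ones. They cannot show whether same-numbered libraries shared a plate or preparation. With the replicate block 0 genes were called in each of the 5 tests. Without I0-E4 replicate 3, 1364 genes reached an unadjusted p under 0.05 in the trend and 1392 in I0-E4 against I0-E0, and without I0-E0 replicate 1 these counts were 1119 and 1016. Leaving out 1 library otherwise gave counts down to 451 and 376. Of 662 values of named genes under alternatives, 648 kept their side of the threshold, 14 passed it (12 without the filter on low counts and 2 by DESeq2) and 0 reversed. Depth limits Hspa1a, Hspa1b and Hspb1, which had 0 to 5 reads in a library.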

Other observations

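No gene was called in the lists not described above. Of 16 cold-inducible and splicing genes, 14 had a trend above 0, with a median of 0.077, and of 17 fatty acid synthesis genes 5 did, with a median of -0.051. The 26 tested genes of cytoskeleton and adhesion had a median of 0.055, with 19 above 0, and the 16 tested markers of N2A cells or sympathetic neurons a median of 0.093, with 10 above 0. Medians of the DNA repair, cholesterol synthesis, hypoxia, NF-kB target, interferon and circadian lists lay between -0.012 and 0.0099, against 0.0015 over all genes tested.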
